A study of Mus musculus with 6 samples.

Results

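The mediators by which mesenchymal stromal cells (MSCs) restrain immune cells were examined as a set of 10 genes, chosen by name from what these mediators are known to do: the checkpoint ligands Cd274 and Pdcd1lg2, the prostaglandin enzymes Ptgs1, Ptgs2 and Ptges, the nitric oxide synthase gene Nos2, the tryptophan-degrading enzyme gene Ido1, the galectins Lgals1 and Lgals9, and Tnfaip6. All 10 are among the 23420 genes of the count table. The cells were MSCs grown from flushed femurs of female C57BL/6 mice aged 6 to 8 weeks, taken as adherent cells and expanded in culture, so the libraries describe cultured cells and not stroma in the animal. Both groups had been transduced with the AP2 retrovirus, which carries eGFP: 3 libraries labelled Ctl MSC came from cells with the empty construct, and 3 libraries labelled MSC-TPr came from cells with the construct coding for the thymoproteasome subunits β1i (Psmb9), β2i (Psmb10) and β5t (Psmb11). No cytokine treatment is named for these libraries.

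Resting MSCs hold little immunosuppressive activity, and interferon-gamma together with TNF-alpha or IL-1 switches it on, a step called licensing. Licensed MSCs display PD-L1 and PD-L2, which engage PD-1 on T cells, release prostaglandin E2, which acts on T cells, macrophages and dendritic cells, and deplete tryptophan through IDO or release nitric oxide through the inducible synthase, the latter being the dominant route in mouse cells. Galectins bind glycans on T cells, and TSG-6 binds hyaluronan and damps neutrophil and macrophage recruitment.

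Between 16158756 and 22158887 reads per library fell on genes, and 3 reads, taken as the limit of detection, were worth 0.139 to 0.181 CPM (reads scaled to a common library size after TMM adjustment), a limit that covers counting error only. The transduced genes were not higher in every library labelled MSC-TPr. Psmb10 stood at 27.8, 8.81 and 8.38 CPM across the libraries labelled Ctl MSC 1 to 3 and at 8.97, 17.3 and 15.2 CPM across MSC-TPr 1 to 3. Psmb9 stood at 3.38, 0.801 and 0.827 against 0.554, 1.24 and 1.21 CPM. Psmb11 held only 1 to 6 reads per library, near the 3-read limit under both labels, the libraries labelled MSC-TPr 2 and 3 included. On the 18 markers of cell division, the mean log2 CPM was 6.52, 3.23 and 3.21 across those labelled Ctl MSC 1 to 3 and 3.27, 6.42 and 6.51 across those labelled MSC-TPr 1 to 3, so both libraries numbered 1 stood with the opposite label. The same held on the first principal component, which carried 56.9% of the variance. The second, with 29.5%, separated all 6 libraries by label, those numbered 1 included. On it, Ctl MSC 1 to 3 stood at -52.81, -21.6 and -20.67, and MSC-TPr 1 to 3 at 54.3, 24.54 and 16.23. The labels do not say whether the libraries came from separate cultures, so p-values measure only the spread between these libraries. Averaged over genes tested, the chi-square between Ctl MSC 2 and Ctl MSC 3 was 4.97. It was 171 to 183 for the other Ctl MSC pairs and 52.3 to 200 within MSC-TPr. An SE or p-value over the libraries numbered 2 and 3 thus rests partly on this near-alike pair. The common dispersion was 0.0168 there and 0.1236 over all 6. Whether Ctl MSC 1 and MSC-TPr 1 were exchanged was not tested. Labels were kept as given, so the direction of every value over all 6 libraries rests on them. Fold changes are therefore given over all 6 libraries and over the 4 numbered 2 and 3. They are given again with the cell division level as a covariate in the fit. At like levels, that fit sets Ctl MSC 1 against MSC-TPr 2 and 3, and MSC-TPr 1 against Ctl MSC 2 and 3. Its group difference thus rests on both libraries numbered 1, as labelled. In bulk RNA, fewer cells of a type and less RNA per cell cannot be told apart.

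Of 10 stromal markers, Eng, Cd44 and Pdgfrb measured 125 to 536 CPM over the 6 libraries. Col1a1 ran from 354 CPM in MSC-TPr 1 to 6916 CPM in MSC-TPr 3. Nt5e (CD73), given below, was lower in every MSC-TPr library. Thy1 (CD90), a marker in most MSC panels, had 1 read in the library labelled Ctl MSC 1 and 0 in the other 5. At the protein level the paper reports CD73 and CD90 on Ctl MSCs by flow cytometry, so Thy1 RNA differs from that report. The paper also reports that modification left the mesenchymal phenotype of MSC-TPr unchanged, and the lower Nt5e RNA stands beside that report. The markers of other cell types were low: Ptprc and Itgam had 0 to 2 reads in every library, the 10 macrophage markers summed to 11.3 to 17.6 CPM, the 7 dendritic cell markers to 3.90 to 7.23 CPM, and the 7 lymphocyte markers to at most 0.237 CPM. Of the macrophage markers, Cd14 reached 13.2 CPM in MSC-TPr 2 and Cd68 14.2 CPM in MSC-TPr 1. The endothelial sum was 24.7 CPM in the library labelled MSC-TPr 1 and 1.27 to 6.20 CPM in the others.

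Promoter sequences are shown for the 5 mediators that have one and were called over the libraries numbered 2 and 3, so that the licensing elements they hold can be read. RefSeq (GRCm38.p6, the mm10 assembly) gave a promoter for 7 of the 10 genes in the table used here, and Nos2, Ido1 and Lgals1 were not matched in that table. The 250 bases before each start were searched on both strands for 5 motifs: the interferon-gamma activated site TTCNNNGAA, the interferon-stimulated response element (GAAA, any 2 bases, GAAA), the NF-kappaB motif (GGG, any 2 bases, TT, any base, CC), the C/EBP motif TTGCNCAA and the AP-1 motif TGANTCA. Of all 32851 mouse promoters, 7.02% held the first, 2.98% the second, 4.11% the third, 2.61% the C/EBP motif and 6.75% the AP-1 motif. Capitals mark a match, and each run reads 5′ to 3′ on the strand of its gene, stopping before any annotated exon of that gene. The Ptgs2 promoter lies at chr1:150099781-150100030 (+), Ptges at chr2:30903298-30903547 (−), Tnfaip6 at chr2:52037863-52038008 (+), Lgals9 at chr11:78984947-78985174 (−) and Cd274 at chr19:29367188-29367437 (+).
Ptgs2: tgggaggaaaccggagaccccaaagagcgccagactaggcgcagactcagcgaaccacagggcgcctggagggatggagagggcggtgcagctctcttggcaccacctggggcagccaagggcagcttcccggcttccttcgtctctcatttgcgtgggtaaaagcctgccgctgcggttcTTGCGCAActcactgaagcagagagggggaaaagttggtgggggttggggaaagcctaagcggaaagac
Ptges: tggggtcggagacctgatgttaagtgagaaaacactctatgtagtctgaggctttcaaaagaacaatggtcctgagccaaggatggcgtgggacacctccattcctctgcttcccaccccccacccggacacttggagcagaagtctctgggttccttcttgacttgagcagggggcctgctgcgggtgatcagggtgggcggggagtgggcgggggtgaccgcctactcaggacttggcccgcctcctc
Tnfaip6: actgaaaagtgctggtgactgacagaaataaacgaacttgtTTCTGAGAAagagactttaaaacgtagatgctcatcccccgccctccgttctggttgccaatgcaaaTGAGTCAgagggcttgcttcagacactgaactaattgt
Lgals9: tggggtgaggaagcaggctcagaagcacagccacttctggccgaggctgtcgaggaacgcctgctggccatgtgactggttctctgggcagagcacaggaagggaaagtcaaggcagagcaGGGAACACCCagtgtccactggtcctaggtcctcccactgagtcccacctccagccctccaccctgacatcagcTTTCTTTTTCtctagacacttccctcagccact
Cd274: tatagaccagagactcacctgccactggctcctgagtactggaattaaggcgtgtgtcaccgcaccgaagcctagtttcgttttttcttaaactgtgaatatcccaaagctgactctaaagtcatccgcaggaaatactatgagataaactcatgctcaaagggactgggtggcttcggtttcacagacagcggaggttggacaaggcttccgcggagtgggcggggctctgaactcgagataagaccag

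Of the 7 promoters, 3 held a match, and the share of all promoters with any of the 5 motifs was not counted. Ptgs2 held the C/EBP motif, 69 to 62 bases before its start. Tnfaip6 held the interferon-gamma activated site at 209 to 201 bases and AP-1 at 142 to 136 bases before its RefSeq start. Lgals9 held the NF-kappaB motif at 129 to 120 bases and the interferon-stimulated element at 55 to 46 bases before its start. No match was found for Ptges, Cd274, Ptgs1 or Pdcd1lg2 in this window. A match is a string of letters, and binding was not measured.

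Levels were compared between genes as CPM per kilobase of exon. Lgals1 was the most abundant mediator, at 1868 ± 859 (SD over 6 libraries) CPM per kb, above 99.98% of the genes with a known length. Ptgs2 followed at 139 ± 58.8, Lgals9 at 26.3 ± 13.8 and Ptgs1 at 7.19 ± 4.06 CPM per kb, and the ranges of Lgals1, Ptgs2, Lgals9 and Ptgs1 did not overlap from one to the next. Tnfaip6 (1.28 ± 1.44), Cd274 (0.947 ± 0.483) and Ptges (0.642 ± 0.514 CPM per kb) had overlapping ranges, and Ptgs1 exceeded Tnfaip6 within each of the 6 libraries although their ranges overlapped. Ido1, Nos2 and Pdcd1lg2 formed the bottom of the order, all below the range of Ptges, and their order among themselves rests on single reads.

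**Figure D1:**
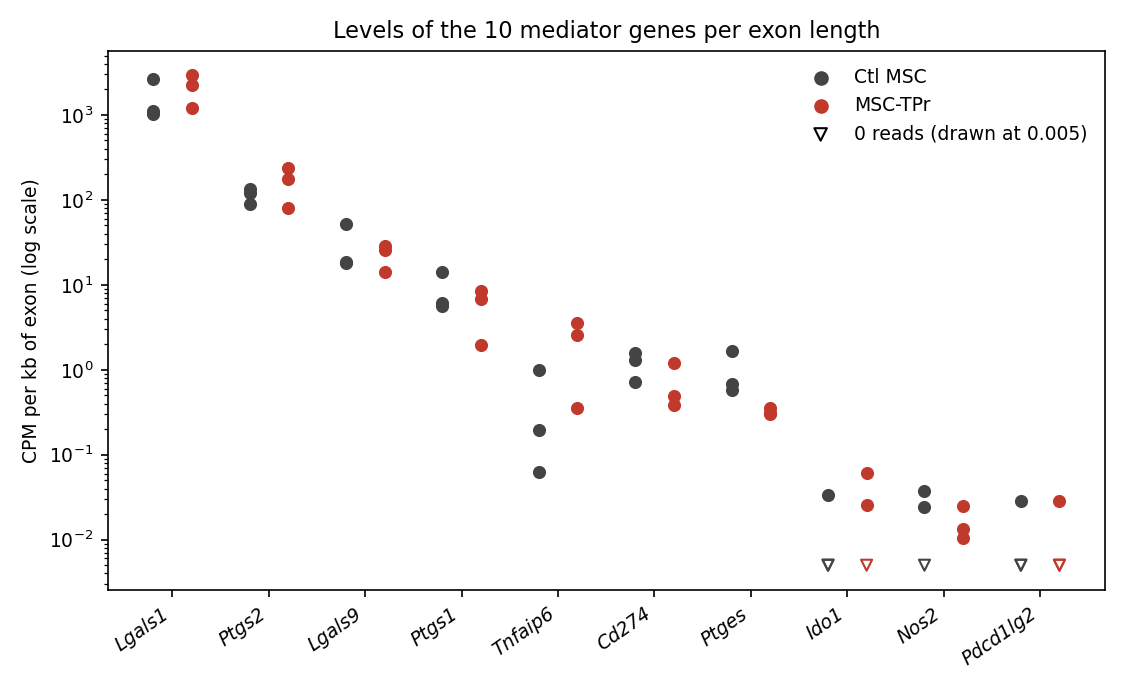
Level of each of the 10 mediator genes in the 6 libraries, in CPM per kb of exon on a log axis, with Ctl MSC in grey and MSC-TPr in red, and libraries with 0 reads as open triangles drawn at 0.005. Lgals1 lies highest, with a mean of 1868, and Ido1, Nos2 and Pdcd1lg2 lie lowest.

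Over all 6 libraries, edgeR's quasi-likelihood test tested 7 of the 10 mediators among 11974 genes, and 0 of the 7 passed an adjusted p of 0.05 with a log2 fold change of at least 0.5, where 0.426% of all genes tested did so. The median log2 fold change of the 7 was -0.38, beside 0.01 over all genes. Ptges alone had an unadjusted p under 0.05 (15.0% of all genes did), and Ptges alone had groups that did not overlap (22.6% of all genes did, 12.1% with MSC-TPr lower). DESeq2 also called 0 mediators, with 5.28% of its 12934 genes called. Over the 4 libraries numbered 2 and 3, 6 of 7 were called, 4 higher and 2 lower in MSC-TPr, where 40.0% of all genes were called (20.6% higher, 19.4% lower). Of the 7, 5 were higher and 2 lower in MSC-TPr with no overlap between these 4 libraries, against 77.5% of all genes (38.3% higher, 39.2% lower). DESeq2 called 5 mediators there, with 35.2% of all genes called. With cell division as a covariate, 4 of 7 were called, against 12.2% of all genes, in a fit that rests on both libraries numbered 1. Leaving out both libraries numbered 1 thus moved the mediators' count from 0 to 6, and the share of all genes called moved with it.

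**Figure D2:**
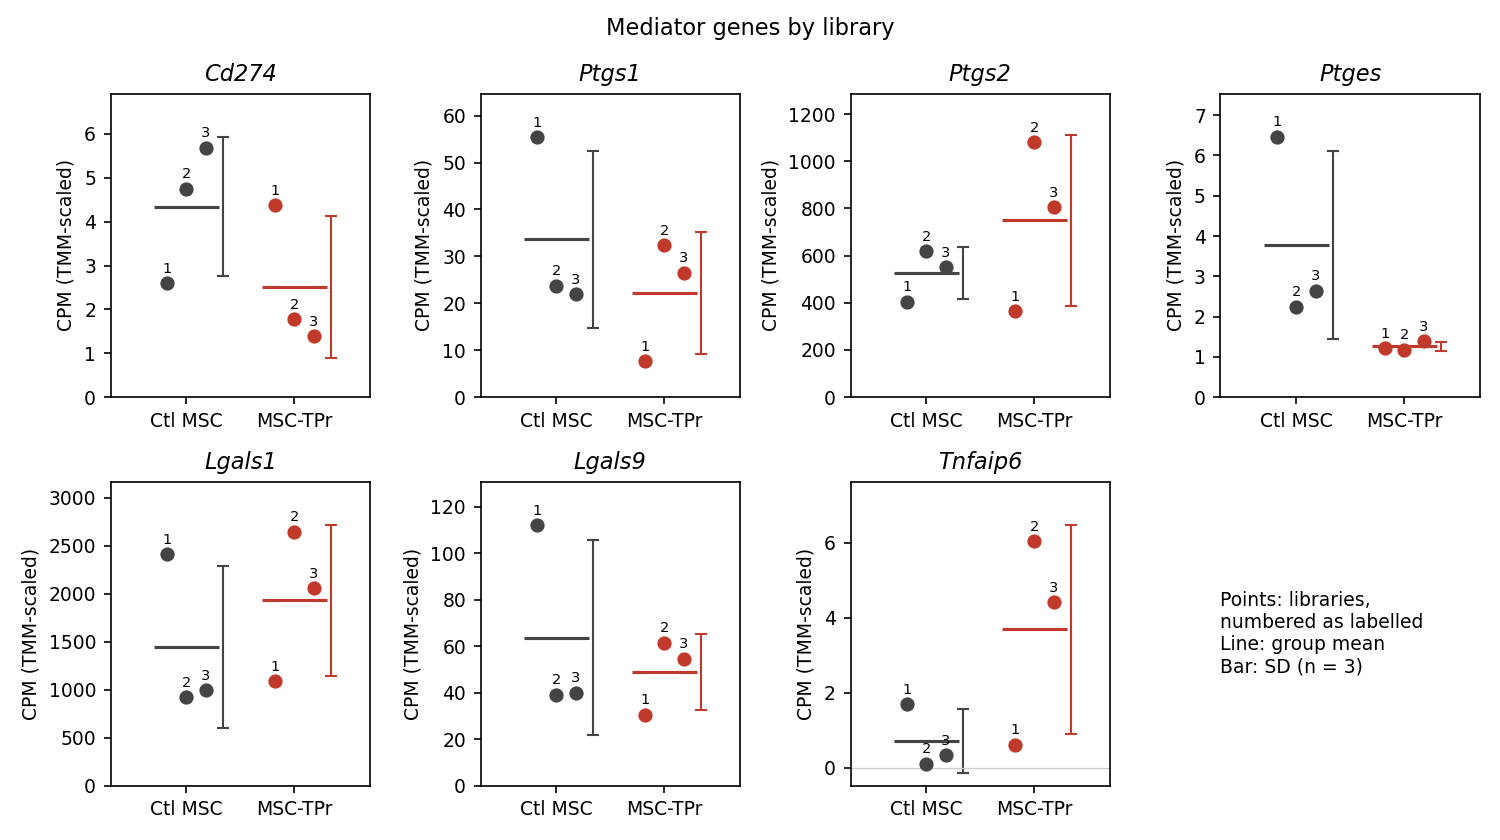
CPM of the 7 tested mediators in each library, with points numbered as the libraries are labelled, a line at the group mean and a bar for the SD (n = 3). The MSC-TPr points lie below all Ctl MSC points for Ptges, and the groups overlap for the other 6 genes.

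Cd274 encodes PD-L1, the ligand that engages PD-1 on activated T cells, and lies on chromosome 19 of mm10 from 29367455 to 29388095 on the plus strand, where its exons overlap an antisense transcript, AC119228.1, whose reads cannot be told apart from it if counting ignored strand. It measured 2.60, 4.75 and 5.68 CPM across the libraries labelled Ctl MSC 1 to 3 and 4.37, 1.77 and 1.39 CPM across MSC-TPr 1 to 3, from 30 to 103 reads. The groups overlapped because the lowest Ctl MSC library and the highest MSC-TPr library were both those numbered 1. The means were 4.34 ± 1.58 and 2.51 ± 1.62 CPM (SD, n = 3), and the log2 fold change of -0.79 (SE 0.528, adjusted p = 0.530 by edgeR) did not pass. Over the libraries numbered 2 and 3 Cd274 fell by 1.72 on the log2 scale (SE 0.249, edgeR adjusted p = 0.00326). With the cell division covariate the change was -0.46 (edgeR adjusted p = 0.246), and with 1 library left out it ran from -1.46 without MSC-TPr 1 to -0.49 without MSC-TPr 3. The 3 libraries with the highest cell division level, MSC-TPr 2, MSC-TPr 3 and Ctl MSC 1, were the 3 lowest for Cd274. By flow cytometry the paper reports Ctl MSCs and MSC-TPr as negative for PD-L1 protein, and raised in both after interferon-gamma. The values given here are RNA and do not measure the displayed ligand.

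Pdcd1lg2 encodes PD-L2, the second PD-1 ligand, and sits downstream of Cd274 on the same strand of chromosome 19, from 29410919 to 29471161. It had 1 read in the library labelled Ctl MSC 3, 1 read in MSC-TPr 1 and 0 in the other 4. All 6 values were under the 3-read limit, so a difference between the groups was not detectable at this depth.

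Ptgs2 encodes cyclooxygenase-2, the inducible enzyme that turns arachidonic acid into prostaglandin H2, and lies on chromosome 1 from 150100031 to 150108227. Its values were 404, 619.8 and 551 CPM across Ctl MSC 1 to 3 and 364, 1081 and 806 CPM across MSC-TPr 1 to 3. Both libraries numbered 1 were the lowest of their group, and the groups overlapped only through MSC-TPr 1, which was the lowest of all 6. The group means of 525 ± 110.2 and 750.1 ± 362 CPM (SD, n = 3) differed by 0.52 on the log2 scale (SE 0.401, edgeR adjusted p = 0.597). Without the libraries numbered 1, Ptgs2 rose by 0.69 (SE 0.176, edgeR adjusted p = 0.0220). The value was 0.28 with the covariate (edgeR adjusted p = 0.682), and with 1 library left out it ran from 0.16 without MSC-TPr 2 to 0.85 without MSC-TPr 1. Unlike Cd274, Ptgs2 did not follow the cell division level: Ctl MSC 1, with the highest level, had less Ptgs2 than Ctl MSC 2 and 3.

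Ptgs1 encodes cyclooxygenase-1, the constitutive form of the enzyme, and lies on chromosome 2 from 36230426 to 36252272, with an exon overlap with Gm43621 on the opposite strand. It measured 55.4, 23.7 and 21.9 CPM across the Ctl MSC libraries and 7.70, 32.4 and 26.5 CPM across the MSC-TPr libraries. The highest and the lowest library were the pair numbered 1, a 7.20-fold difference, and the other 4 lay between them. Over all 6 libraries the log2 fold change was -0.60 (SE 0.594, edgeR adjusted p = 0.688), and over the libraries numbered 2 and 3 it turned to 0.37 (SE 0.147, edgeR adjusted p = 0.0842). With the covariate Ptgs1 fell by 1.20 (SE 0.196, edgeR adjusted p = 0.00943). With 1 library left out it ran from -0.97 without MSC-TPr 2 to -0.04 without Ctl MSC 1. Its direction thus depends on which libraries and terms enter the fit.

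Ptges encodes microsomal prostaglandin E synthase-1, which makes prostaglandin E2 from prostaglandin H2 and is coupled to cyclooxygenase-2, and lies on the minus strand of chromosome 2 from 30889471 to 30929863. It had 6.46, 2.24 and 2.65 CPM across Ctl MSC 1 to 3 and 1.22, 1.18 and 1.39 CPM across MSC-TPr 1 to 3, from 20 to 107 reads. Every MSC-TPr library was below every Ctl MSC library, and the MSC-TPr libraries lay close together while Ctl MSC 1 stood above the rest. The means were 3.79 ± 2.33 and 1.26 ± 0.112 CPM (SD, n = 3), 2.99-fold apart, and the log2 fold change was -1.57 (SE 0.474, unadjusted p = 0.0140 and adjusted p = 0.215 by edgeR). DESeq2 gave -1.56 with an adjusted p of 0.0605. Without Ctl MSC 1 the change was -0.94 (edgeR adjusted p = 0.174). Over the libraries numbered 2 and 3 Ptges fell by 0.91 (SE 0.269, edgeR adjusted p = 0.0359), where DESeq2 gave an adjusted p of 0.183, and with the covariate it fell by 1.75 (SE 0.333, edgeR adjusted p = 0.0168). Ptges was lower in MSC-TPr under each of these fits, although a call depended on the fit.

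Cyclooxygenase-2 and the terminal synthase act in sequence, and the ratio of their transcripts was formed within each library. Per kb of exon, Ptgs2 exceeded Ptges 53.6-fold, 237-fold and 179-fold across Ctl MSC 1 to 3 and 256-fold, 784-fold and 497-fold across MSC-TPr 1 to 3. This ratio was higher in every MSC-TPr library, with means of 156 ± 93.7 and 512 ± 264 (SD, n = 3, exact two-sided permutation p = 0.1, the smallest that 3 against 3 allows). The ratio of Ptgs2 to Ptgs1 was also higher in every MSC-TPr library, at 40.1, 28.3 and 25.8 against 6.18, 22.2 and 21.3. Ratios were formed after the values had been seen, for all 21 pairs of the 7 mediators, and the groups did not overlap for 9 of the 21 pairs, against 22.4% of all pairs of genes tested. The 9 pairs share genes, Ptges being in 4 of them.

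Nos2 encodes the inducible nitric oxide synthase, on chromosome 11 from 78920787 to 78960254. Its reads numbered 0, 2 and 3 across Ctl MSC 1 to 3 and 2, 1 and 1 across MSC-TPr 1 to 3. Ido1, which encodes indoleamine 2,3-dioxygenase, the first enzyme of tryptophan breakdown to kynurenine, lies on the minus strand of chromosome 8 from 24584136 to 24597009 and had 1, 0 and 0 reads against 2, 0 and 1. Both genes were at or under 3 reads in every library, did not enter the test, and gave no detectable difference at this depth. As stated above, nitric oxide is the dominant route in mouse cells, and whether these cells were licensed was not tested.

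Lgals1 encodes galectin-1, a secreted lectin that binds glycans on activated T cells, and lies on chromosome 15 from 78926725 to 78930465. It measured 2412, 919.5 and 995 CPM across Ctl MSC 1 to 3 and 1090.1, 2646 and 2058 CPM across MSC-TPr 1 to 3. The 3 libraries with high cell division markers held 2058 to 2646 CPM and the other 3 held 919.5 to 1090.1 CPM, whatever their label. The means were 1442 ± 840.35 and 1931 ± 786 CPM (SD, n = 3), 0.42 apart on the log2 scale (SE 0.484, edgeR adjusted p = 0.733). Over the libraries numbered 2 and 3 it rose by 1.30 (SE 0.166, edgeR adjusted p = 0.00217). With the covariate the change was 0.08 (SE 0.157, edgeR adjusted p = 0.769). Leaving out 1 library gave 0.13 without MSC-TPr 2 to 1.02 without Ctl MSC 1.

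Lgals9 encodes galectin-9, a tandem-repeat galectin that binds TIM-3 and is inducible by interferon-gamma, and lies on the minus strand of chromosome 11 from 78962974 to 78984946, close to Nos2. It had 112, 39.0 and 40.0 CPM across the Ctl MSC libraries and 30.6, 61.4 and 54.6 CPM across the MSC-TPr libraries. As for Ptgs1, the highest and the lowest value came from the libraries numbered 1. The log2 fold change was -0.38 over all 6 libraries (SE 0.485, edgeR adjusted p = 0.763). It rose by 0.56 over those numbered 2 and 3 (SE 0.121, edgeR adjusted p = 0.0130) and fell by 0.67 with the covariate (SE 0.150, edgeR adjusted p = 0.0293). Leaving out 1 library gave -0.64 without Ctl MSC 2 to 0.31 without Ctl MSC 1. The direction for Lgals9 is thus opposite in these last 2 fits, both past the threshold.

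The ratio of the galectins varied less over the libraries than either gene. The ratio of Lgals1 to Lgals9 per kb of exon was 50.9, 55.7 and 58.9 across Ctl MSC 1 to 3 and 84.4, 102 and 89.1 across MSC-TPr 1 to 3. All MSC-TPr libraries lay above all Ctl MSC libraries, those numbered 1 included, with means of 55.2 ± 4.02 and 91.8 ± 9.08 (SD, n = 3). The exact two-sided permutation p was 0.1, the smallest that 3 against 3 allows. Every pair without overlap has this p, so it adds nothing to the lack of overlap. The ratio of Lgals1 to Lgals9 is 1 of the 9 pairs counted above.

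Tnfaip6 encodes TSG-6, a hyaluronan-binding protein secreted by MSCs on exposure to TNF-alpha or IL-1, and lies on chromosome 2 from 52038009 to 52056686. It measured 1.69, 0.107 and 0.331 CPM across Ctl MSC 1 to 3 and 0.609, 6.03 and 4.41 CPM across MSC-TPr 1 to 3, that is 28, 2 and 6 against 11, 102 and 95 reads. It spanned a 56.5-fold range, the widest of the 7 tested, and the groups overlapped because Ctl MSC 1 was above MSC-TPr 1. The means of 0.710 ± 0.858 and 3.68 ± 2.78 CPM (SD, n = 3) differed by 2.38 on the log2 scale (SE 1.11, edgeR adjusted p = 0.377). Over the libraries numbered 2 and 3 Tnfaip6 rose by 4.54 (SE 0.450, edgeR adjusted p = 0.000933). There, 8 reads in Ctl MSC stood against 197 in MSC-TPr, a ratio of 23.6 after scaling, with an exact 95% interval of 11.7 to 55.4 for counting error only. With the covariate it rose by 1.60 (SE 0.397, edgeR adjusted p = 0.0377). Leaving out 1 library gave 1.84 without MSC-TPr 2 to 4.04 without Ctl MSC 1. Its direction was the same in the 3 fits, while the size ranged from 1.60 to 4.54.

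**Figure D3:**
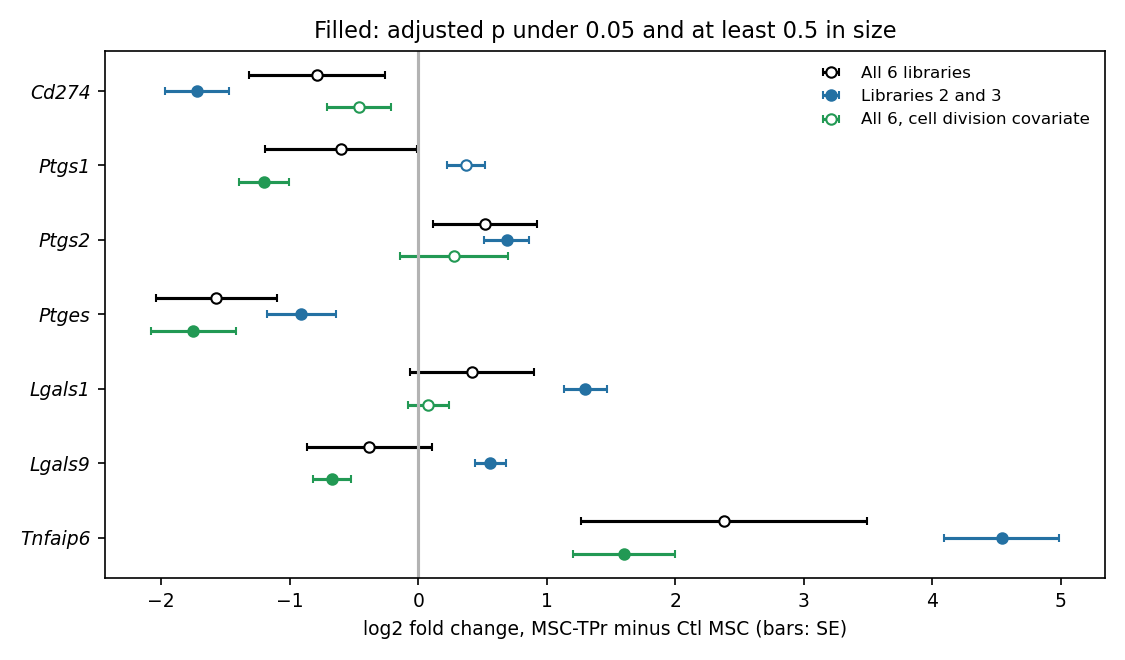
The log2 fold change, MSC-TPr minus Ctl MSC, of the 7 tested mediators over all 6 libraries (black), over the libraries numbered 2 and 3 (blue) and over all 6 with the cell division covariate (green), with bars for the SE and filled points for calls. Ptges, Cd274, Ptgs2, Lgals1 and Tnfaip6 keep 1 direction over the 3 fits, and Ptgs1 and Lgals9 change theirs.

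Across the libraries the mediators fell into patterns that the labels alone did not describe. Lgals1, Lgals9, Ptgs1 and Tnfaip6 were each higher in the 3 libraries with high cell division markers than in the other 3, and Cd274 was lower. Ptgs2 and Ptges did not order this way. The share of all genes that split this way was not counted, so these orderings carry no reading about the mediators as a set. The first principal component, with 56.9% of the variance, splits the libraries alike, so the pattern is not particular to the mediators. Between the libraries numbered 1 themselves, log2 CPM in MSC-TPr minus that in Ctl MSC was 0.75 for Cd274, -2.85 for Ptgs1, -0.15 for Ptgs2, -2.41 for Ptges, -1.15 for Lgals1, -1.87 for Lgals9 and -1.47 for Tnfaip6. That difference has the sign of the difference among the libraries numbered 2 and 3 for Ptges alone. The part of cell division in these patterns was tested only through the covariate, whose values stand beside each gene. That fit rests on both libraries numbered 1, so it cannot separate cell division from what sets them apart.

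**Figure D4:**
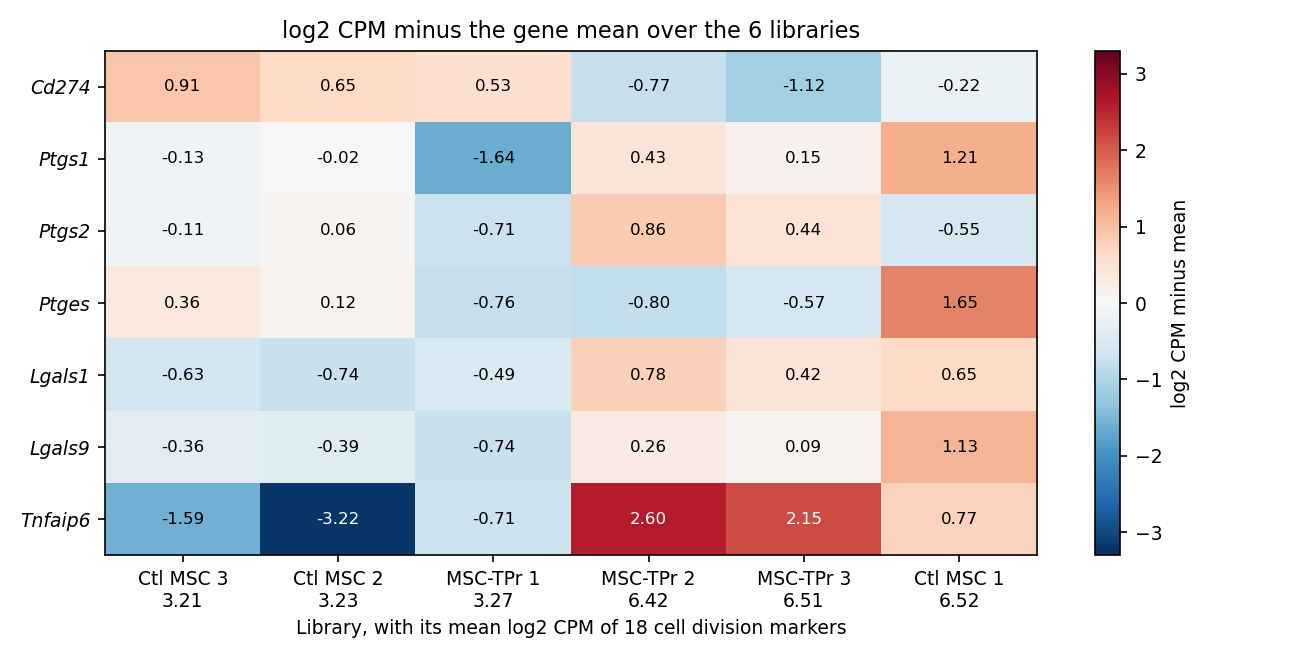
Log2 CPM of each tested mediator minus its mean over the 6 libraries, in colour and in figures, with the libraries ordered from left to right by their mean log2 CPM of cell division markers, printed under each name. Lgals1, Lgals9, Ptgs1 and Tnfaip6 are higher in the 3 right-hand libraries, Cd274 is lower there, and Ptges is low in all 3 MSC-TPr libraries.

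Genes with the most similar profiles were named by the mean absolute difference of centred log2 CPM over the 6 libraries, among 11491 genes tested with a mean of at least 1 CPM. For Ptges these were Parp12 and Dtx3l, both at 0.146, which encode an ADP-ribosyltransferase and a ubiquitin ligase known as interferon-inducible. Parp12 measured 75.8, 30.6 and 27.3 CPM across the Ctl MSC libraries and 14.2, 13.1 and 20.1 CPM across the MSC-TPr libraries. For Cd274 they were Grtp1 (0.0771) and Zkscan14 (0.105), for Ptgs1 Gmds (0.107) and Ntn4 (0.119), and for Ptgs2 Hectd2 (0.0832) and Arid5a (0.0900). For Lgals1 they were Orc6 (0.0444), a subunit of the origin recognition complex, and Emc2 (0.0465). For Lgals9 they were Tnfaip8 (0.0888) and Bmp4 (0.0937). Tnfaip6 had no close match, with Foxs1 at 0.360 and Slco1a5 at 0.455. These are descriptions over 6 libraries and carry no test.

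The pathways around the mediators were read from 9 lists with 125 genes, the 10 mediators included, of which 85 were tested over all 6 libraries. By edgeR none was called higher and 2 were called lower in MSC-TPr, Lgals3bp and Itih5, beside 0.0251% of all genes called higher and 0.401% called lower. The median log2 fold change of the 85 was -0.08, against 0.01 over all genes. An unadjusted p under 0.05 was reached by 15 of the 85, where 15.0% of all genes did so. Over the libraries numbered 2 and 3, 27 of 86 were called higher and 19 lower, where 20.6% of all genes were called higher and 19.4% lower. With the covariate, 21 of the 78 tested genes outside the mediators were called, where 12.2% of all genes were.

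Lgals3bp, whose product is a secreted glycoprotein bound by galectins, was the gene called in the galectin list. It measured 311, 271 and 277 CPM across Ctl MSC 1 to 3 and 88.5, 77.8 and 91.4 CPM across MSC-TPr 1 to 3. All 3 MSC-TPr libraries were lower, those numbered 1 included, and it fell by 1.74 on the log2 scale (SE 0.147, edgeR adjusted p = 0.0127). The change was -1.69 over the libraries numbered 2 and 3 (edgeR adjusted p = 0.000409) and -1.75 with the covariate (edgeR adjusted p = 0.000381). The call was lost without Ctl MSC 2, Ctl MSC 3, MSC-TPr 2 or MSC-TPr 3 (edgeR adjusted p = 0.0890 to 0.122), with the change between -1.78 and -1.66. No other gene of this list was called by edgeR over all 6 libraries. Of the 7 tested, the groups did not overlap for 1 higher in MSC-TPr, Havcr2, and for 2 lower. Havcr2, which encodes TIM-3, was at 1.65 (edgeR adjusted p = 0.205, DESeq2 adjusted p = 0.0308). It was at 1.92 over the libraries numbered 2 and 3 (edgeR adjusted p = 0.0242) and at 1.56 with the covariate (edgeR adjusted p = 0.0472).

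Itih5, a heavy chain of the inter-alpha-inhibitor family that TSG-6 acts on in hyaluronan matrix, had 4.83, 4.11 and 5.02 CPM across Ctl MSC 1 to 3 and 0.443, 0.532 and 0.742 CPM across MSC-TPr 1 to 3. The groups lay far apart, and the log2 fold change was -3.0 (SE 0.324, edgeR adjusted p = 0.0260). It fell by 2.80 over the libraries numbered 2 and 3 (edgeR adjusted p = 0.00119) and by 3.07 with the covariate (edgeR adjusted p = 0.00112). The call was lost on leaving out any 1 library except Ctl MSC 1 (edgeR adjusted p = 0.0516 to 0.204, change between -3.23 and -2.84).

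By edgeR the other lists held no call over all 6 libraries, and the 2 genes of lowest p outside the mediators are given by value. Where DESeq2 called one of these genes over all 6 libraries, its adjusted p is given. Among surface ligands, Cd47, the signal that keeps phagocytes from engulfing a cell, was lower in every MSC-TPr library, with a log2 fold change of -0.63 (edgeR adjusted p = 0.183). It passed over the libraries numbered 2 and 3 (-0.79, edgeR adjusted p = 0.00302) and with the covariate (-0.53, edgeR adjusted p = 0.0304). Cd200, which engages an inhibitory receptor on myeloid cells, was at -1.41 (edgeR adjusted p = 0.577), at 0.99 over the libraries numbered 2 and 3 (edgeR adjusted p = 0.134) and at -1.84 with the covariate (edgeR adjusted p = 0.0339).

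In the prostaglandin E2 list, Ptges2, a second terminal synthase, was at 0.40 (edgeR adjusted p = 0.387), with 0.60 over the libraries numbered 2 and 3 (edgeR adjusted p = 0.0124) and 0.30 with the covariate (edgeR adjusted p = 0.172). The receptor Ptger4 was at 0.43 (edgeR adjusted p = 0.715), then at 0.96 (edgeR adjusted p = 0.0115) and -0.01 (edgeR adjusted p = 0.983) in the same order of fits. Of other prostanoid genes, the prostacyclin receptor Ptgir was higher in every MSC-TPr library, at 1.06 (edgeR adjusted p = 0.198). DESeq2 called Ptgir over all 6 libraries (1.07, DESeq2 adjusted p = 0.0491). By edgeR it was at 1.05 over the libraries numbered 2 and 3 (adjusted p = 0.0175) and at 1.05 with the covariate (adjusted p = 0.0559). The prostaglandin F receptor Ptgfr was at -1.62 (edgeR adjusted p = 0.564), turned to 1.33 over the libraries numbered 2 and 3 (edgeR adjusted p = 0.0390) and was at -1.81 with the covariate (edgeR adjusted p = 0.0490).

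Slc7a2, a transporter that brings arginine into the cell for nitric oxide synthesis, was at -1.45 (edgeR adjusted p = 0.233). Its values of 84.0, 274 and 265 CPM across Ctl MSC 1 to 3 met 99.4, 57.8 and 70.0 CPM across MSC-TPr 1 to 3, with overlap through the libraries numbered 1. Slc7a2 passed over the libraries numbered 2 and 3 (-2.07, edgeR adjusted p = 0.000272), with the covariate (-0.92, edgeR adjusted p = 0.0400) and without Ctl MSC 1 (-1.83, edgeR adjusted p = 0.0438). Gchfr, a regulator of the enzyme that starts synthesis of the nitric oxide synthase cofactor, was at 1.26 (edgeR adjusted p = 0.282), with 1.83 over the libraries numbered 2 and 3 (edgeR adjusted p = 0.00917) and 0.93 with the covariate (edgeR adjusted p = 0.0969). In the tryptophan list, Ccbl1, a kynurenine aminotransferase, was at -0.36 (edgeR adjusted p = 0.655), with -0.79 over the libraries numbered 2 and 3 (edgeR adjusted p = 0.0299) and -0.15 with the covariate (edgeR adjusted p = 0.688). Wars, the tryptophanyl-tRNA synthetase, was at 0.26 (edgeR adjusted p = 0.782), turned to -0.30 over the libraries numbered 2 and 3 (edgeR adjusted p = 0.135) and was at 0.59 with the covariate (edgeR adjusted p = 0.0332).

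Among other soluble factors, Nt5e, which encodes CD73, the ectoenzyme that makes adenosine, had 11.4, 20.2 and 17.4 CPM across Ctl MSC 1 to 3 and 2.66, 4.20 and 5.24 CPM across MSC-TPr 1 to 3. The groups did not overlap, and the log2 fold change was -2.02 (edgeR adjusted p = 0.0790), past the threshold in DESeq2 (adjusted p = 2.04e-05), over the libraries numbered 2 and 3 (-1.99, edgeR adjusted p = 0.000810) and with the covariate (-1.98, edgeR adjusted p = 0.0125). Hmox1, heme oxygenase-1, had 577, 664 and 683 against 1067, 1497 and 909 CPM, a change of 0.85 (SE 0.229, edgeR adjusted p = 0.183, DESeq2 adjusted p = 0.0277). It passed over the libraries numbered 2 and 3 (0.84, edgeR adjusted p = 0.0318) and with the covariate (0.87, edgeR adjusted p = 0.0378).

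Of the licensing factors, Irf9, the DNA-binding subunit of the interferon complex ISGF3, had 58.4, 37.9 and 41.3 against 23.6, 18.8 and 13.7 CPM. Every MSC-TPr library was lower for Irf9, at -1.29 (SE 0.273, edgeR adjusted p = 0.121, DESeq2 adjusted p = 0.00304), and its exons overlap those of Rnf31 on the same strand. Irf9 passed over the libraries numbered 2 and 3 (-1.28, edgeR adjusted p = 0.00282) and with the covariate (-1.30, edgeR adjusted p = 0.0155). Tnfrsf1b, a TNF receptor, was at -0.64 (edgeR adjusted p = 0.191), and passed at -0.83 over the libraries numbered 2 and 3 (edgeR adjusted p = 0.00590) and at -0.55 with the covariate (edgeR adjusted p = 0.0340).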

How the data were processed

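Libraries of polyadenylated RNA (KAPA stranded kit, paired ends) were sequenced from 3 Ctl MSC and 3 MSC-TPr samples. Per the submitters' processing notes, CASAVA 1.8.2, Trimmomatic 0.35 and TopHat2 2.1.0 were used, and the authors aligned reads to mm10 and deposited raw Htseq-count counts per gene, without normalization. Whether counting used the strand is not given in the sources used here. Reads listed for no gene were left out, so that 79.2% to 86.2% of listed reads remained.

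The deposited counts of all 6 libraries were fitted by edgeR 4.0.16 (R 4.3.3) after TMM scaling and filterByExpr, using its quasi-likelihood test for the group, and p-values were adjusted by Benjamini-Hochberg over all genes tested. Genes were called where the adjusted p was under 0.05 and the log2 fold change was 0.5 or more in either direction. The SE is the log2 fold change divided by the square root of F. Log2 CPM profiles used a prior count of 0.5, and exon lengths and positions came from GENCODE vM21 (mm10). DESeq2 1.42.0, other normalizations and filters, omitted libraries, a replicate block and a cell division covariate were alternatives. The fitting was tested on simulated data. Symbols were matched by current or older names.

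The members and lists were chosen with earlier results of these data known. The genes named are the 10 mediators, the transduced genes, from each of the 9 lists the genes called or otherwise the 2 outside the mediators with the lowest p and at least 1 CPM, and the 2 most similar profiles per tested mediator. Stromal and blood cell markers, Havcr2 and the ratios between mediators were named after their values were seen.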

Additional observations from a re-analysis of the deposited data

How the results depend on the processing

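The mediators' count of 0 calls over all 6 libraries was the same with DESeq2, RLE or upper quartile scaling, without the filter, with at least 10 counts in every library, no minimum fold change, and without any 1 library. It became 6 over the 4 libraries numbered 2 and 3, 5 there with DESeq2 (chosen after seeing the data) and 4 with the cell division covariate. Over all genes, 3 were called higher and 48 lower. The counts were 244 and 439 with DESeq2, 2498 and 2356 over the libraries numbered 2 and 3 (2412 and 2153 with DESeq2), and 574 and 887 with the covariate. At least 10 counts in every library left 29 lower. Leaving out 1 library gave 0 to 11 higher and 0 to 105 lower, the 11 without MSC-TPr 1 and the 105 without Ctl MSC 1. Outside the mediators, the 9 lists held 2 calls among 78 genes tested. There were 8 with DESeq2, 1 with at least 10 counts, and 40 over the libraries numbered 2 and 3 with either tool. The covariate gave 21, and leaving out 1 library gave 0 to 3. The number tested differs where the filter, the tool or the libraries change. For DESeq2, the libraries numbered 2 and 3 and the covariate, the shares of all genes called stand above.

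Same-numbered libraries deviated from their group means in opposite directions (correlations of -0.755, -0.575 and -0.590). Those means include both libraries numbered 1, so the correlations cannot tell whether libraries were prepared in numbered pairs. A replicate block in the fit gave 0 calls higher, 0 lower and 0 in the lists, while the adjusted p of the mediators was 0.760 to 0.953.

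Directions turned for Ptgs1 (0.37 over the libraries numbered 2 and 3, 0.38 there with DESeq2), Lgals9 (0.56 and 0.56, and 0.31 without Ctl MSC 1, in a range of -0.64 to 0.31 with 1 library left out), Cd200 (0.99 and 0.98, and a range of -2.21 to 0.60 with 1 library left out, highest without Ctl MSC 1), Ptgfr (1.33 and 1.33, and -2.28 to 0.96 likewise), Wars (-0.30 and -0.29, -0.01 without Ctl MSC 1 and -0.02 without MSC-TPr 1, in a range of -0.02 to 0.45) and Ptger4 (-0.01 with the covariate). The cause was not tested. With 3 libraries a group and both libraries numbered 1 apart from their groups, the 6-library fit has wide errors. The 4-library fit rests on 2 libraries a group that also differ in cell division markers, with Ctl MSC 2 and 3 nearly alike. The covariate fit rests on both libraries numbered 1. Tnfaip6 and Itih5 gave no value with at least 10 counts in every library. Pdcd1lg2, Nos2 and Ido1 are limited by depth, at 0 to 3 reads.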
